A study of Mus musculus with 7 samples.

Results

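The antioxidant genes under Nrf2 were followed in mouse liver around the day: the transcription factor Nfe2l2 (which encodes Nrf2), its inhibitor Keap1, and the enzymes Nqo1, Gclc, Gclm, Txnrd1, Srxn1, Prdx6, Cat and Gpx1. The 10 genes were taken by symbol from the array's annotation, with the probe set of highest mean where a gene had several. Of the 10, 9 had a probe set, 1 each, and Prdx6 was not analysed here because no probe set in the annotation used carried its symbol. These 9 probe sets stood among 12076 that carried a single gene symbol and had a mean above 85 units, out of 35556 on the array.

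The study set the daily course of liver mRNA beside that of RNA polymerase II and histone marks, and only the mRNA arrays are described here. Livers of male C57/BL6 mice, 9 to 11 weeks old when housing began, were taken every 4 h between ZT02 and ZT26, where ZT is the time in hours after lights on. All mice were kept for 2 weeks with food at all hours in cycles of 12 h light and 12 h dark, then fed only between ZT12 and ZT24 for 7 days, and livers were flushed with saline before they were taken. Each time point was 1 array of RNA pooled from 5 livers, 500 ng of each, so no time point had a replicate array and the spread between mice was not measured. ZT14, ZT18 and ZT22 lay in the dark with food, and ZT02, ZT06, ZT10 and ZT26 in the light without food, so light and feeding cannot be told apart. The labels name no genetic change and no drug treatment, and all mice were anesthetized with isoflurane before the livers were taken.

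Nrf2 is a transcription factor that binds antioxidant response elements in DNA together with small Maf proteins. In resting cells Keap1 holds it in the cytoplasm and hands it to a ubiquitin ligase for destruction, and when reactive compounds modify the cysteines of Keap1, Nrf2 escapes and enters the nucleus. Its targets make glutathione, keep thioredoxin and peroxiredoxins reduced, and detoxify quinones and other electrophiles, and the liver, which handles food-borne and metabolic oxidants, uses these enzymes heavily. Because Nrf2 is controlled mostly at the protein level, the mRNA of Nfe2l2 is not a measure of its activity.

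Values are in units, the natural scale of the deposited log2 signal. The course of every probe set over the 7 arrays was described by a 24 h cosine on the log2 scale, which gave an amplitude (from the mean to the peak, in log2), a peak time and a p-value from limma's moderated F-test, adjusted by Benjamini-Hochberg over the 12076 probe sets. Genes with an adjusted p under 0.05 are said to pass. None of the 9 measured members passed this test (0 of 9), against 4.47% of all probe sets tested. At an unadjusted p under 0.05 the count was 1 of 9, Gclc, against 25.7% of all. Highest over lowest array exceeded 1.5-fold in 1 of 9 members, again Gclc, against 16.3% of all. The thresholds of the study's methods were applied to mRNA alone, as a Fisher one-period p under 0.25 with more than 1.5-fold. By these the count was 1 of 9, also Gclc, against 13.6% of all. The study's criteria on RNA polymerase II were not applied. The median amplitude was 0.04 over the 9 members and 0.09 over all probe sets tested, whose quartiles were 0.05 and 0.17. Because whole liver was measured, fewer cells of a type and less RNA per cell cannot be told apart in any of these values.

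**Figure D1:**
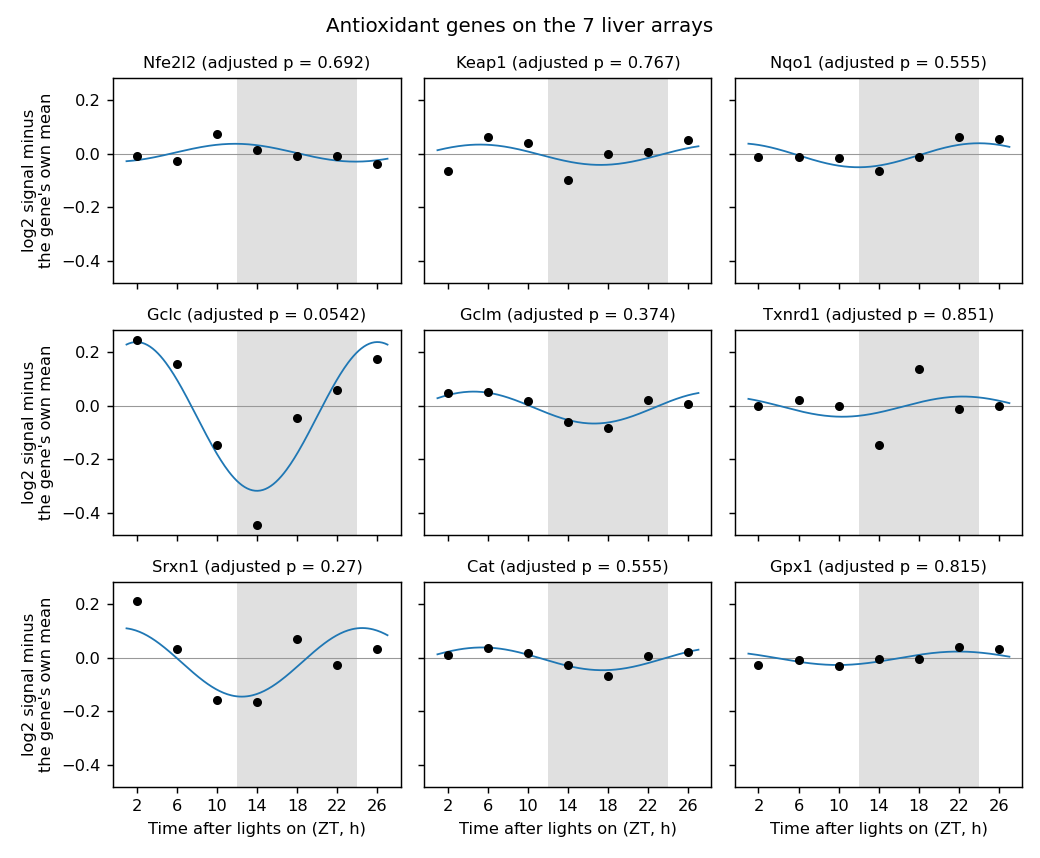
Log2 signal of the 9 measured antioxidant genes minus each gene's own mean (vertical axis) against the time after lights on in hours (horizontal axis), with 1 pool of 5 livers per point, no error bars because there was no replicate array, and the dark phase shaded. Gclc is lowest at ZT14 and covers the widest range, followed by Srxn1 and Txnrd1. The other genes stay close to their means.

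The regulators came first. Nfe2l2 (probe set 10483809) read 1589.8 units at ZT02, 1570.5 at ZT06, 1681 at ZT10, 1614 at ZT14, 1589.8 at ZT18, 1589.8 at ZT22 and 1558 at ZT26. The highest array, ZT10, stood 1.08-fold above the lowest, ZT26, and 3 arrays shared one value. The fitted amplitude of Nfe2l2 was 0.03 ± 0.03 (SE, 7 arrays) with an adjusted p of 0.692 (limma). Its upper 95% bound, taken from the amplitude and its SE, was 0.10. Such bounds are only approximate for amplitudes near their SE, because an amplitude cannot be negative. Keap1 (probe set 10591482) read 370.3, 405, 399, 362, 388, 389 and 401 units from ZT02 to ZT26. Its highest array was ZT06 and its lowest ZT14, a 1.12-fold difference, and the amplitude was 0.04 ± 0.04 with an adjusted p of 0.767 and an upper bound of 0.13.

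Glutathione is made in a chain that starts with glutamate-cysteine ligase, whose catalytic subunit is encoded by Gclc and whose modifier subunit is encoded by Gclm. Gclc (probe set 10587266) read 5655 units at ZT02, 5313 at ZT06, 4307 at ZT10, 3491 at ZT14, 4614 at ZT18, 4965 at ZT22 and 5377 at ZT26. It was high at the end of the dark phase and in the early light and low around the light-to-dark change, with a 1.62-fold difference between ZT02 and ZT14. The cosine had an amplitude of 0.28 ± 0.05, a fitted peak-to-trough fold of 1.47 and a peak at ZT1.99 with an SE of 0.752 h. The adjusted p was 0.0542 (limma), just above the threshold, and the unadjusted p was 0.00270. This amplitude stood at the 90.2 percentile of all probe sets tested. Which side of the threshold Gclc fell on depended on the setting, with an adjusted p of 0.0433 at a minimum of 170 units and 0.113 with no minimum. With 1 array left out at a time the adjusted p ran between 0.0476, without ZT18, and 0.161, and without ZT14 the highest over the lowest array was 1.31-fold. The markers of Kupffer cells, the liver's macrophages, summed to 7503, 6811, 5317, 5677, 6801, 8184 and 8439 units from ZT02 to ZT26. These sums covered a 1.59-fold range. Of the 9 tested markers 5 passed, against 4.47% of all probe sets tested. All 9 had an unadjusted p under 0.05 (limma), against 25.7% of all. The fitted peaks of all 9, passing or not, lay between ZT22.7 and ZT1.93. The sum of these markers was low at ZT10 and ZT14, as was Gclc, but the sum was lowest at ZT10 and Gclc at ZT14. The sum was higher at ZT22 (8184 units) than at ZT06 (6811 units), whereas Gclc was higher at ZT06. The part of these cells in the course of Gclc was not tested.

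Gclm (probe set 10495763) read 3953, 3963, 3874, 3673, 3614, 3879.8 and 3841 units from ZT02 to ZT26. It was highest at ZT06 and lowest at ZT18, a 1.10-fold difference, with an amplitude of 0.06 ± 0.03 and an adjusted p of 0.374. Gclc and Gclm were also set against each other within each array, a comparison chosen after their values were seen. The log2 difference of Gclc minus Gclm, relative to its mean, was 0.20 at ZT02, 0.11 at ZT06, −0.16 at ZT10, −0.39 at ZT14, 0.04 at ZT18, 0.04 at ZT22 and 0.17 at ZT26. It spanned 0.59 log2 units, was lowest at ZT14 and had a cosine amplitude of 0.24 with a peak at ZT1.38. An exact permutation test over the 5040 orders of the arrays gave p = 0.0214, and a pure cosine peaking at ZT02 gave 0.00159. Because Gclm varied little, the difference mostly followed Gclc, and this p is not separate support. Leaving out 1 array at a time gave exact p-values of 0.00278 to 0.0833, the highest without ZT02, ZT14 or ZT26. Without ZT02 or ZT26 the remaining arrays are evenly spaced around the day. More orders then give the same fit, and the smallest p that can be reached is higher. The p-values of these settings are therefore not directly comparable.

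**Figure D2:**
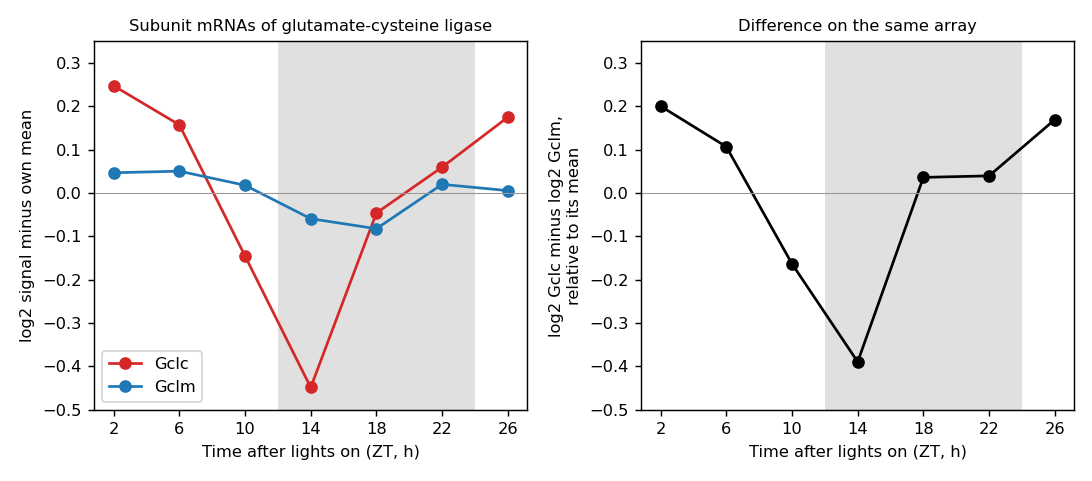
Left, log2 signal of Gclc and Gclm minus each gene's own mean; right, log2 Gclc minus log2 Gclm on the same array, relative to its mean, both against the time after lights on in hours, with 1 pool of 5 livers per point and the dark phase shaded. The difference is highest at ZT02 (0.20) and lowest at ZT14 (−0.39).

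The thioredoxin branch reduces protein disulfides and oxidised peroxiredoxins. Txnrd1 (thioredoxin reductase of the cytosol, probe set 10365260) read 732, 743, 732, 661, 806, 727 and 732 units from ZT02 to ZT26. ZT18 was highest and ZT14 lowest, 1.22-fold apart, but these were neighbouring time points, and the amplitude of the cosine was 0.04 ± 0.05 with an adjusted p of 0.851. Srxn1 encodes sulfiredoxin, which repairs over-oxidised peroxiredoxins. Srxn1 (probe set 10477061) read 582, 514, 449.8, 448, 528, 493 and 514 units from ZT02 to ZT26. It was highest at ZT02 and lowest at ZT14, 1.30-fold apart, with an amplitude of 0.13 ± 0.05, a peak at ZT0.480 with an SE of 1.59 h, an unadjusted p of 0.0942 and an adjusted p of 0.270. The 2 arrays of the same clock hour, ZT26 and ZT02, differed by −0.18 log2 units in Srxn1 (ZT26 minus ZT02), a 1.13-fold difference. The fitted peak-to-trough fold of Srxn1 was 1.195.

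Motifs were searched in RefSeq promoter windows (mouse build GRCm38.p6, 250 bases before to 50 after each start), which 8 of the 10 genes had. The antioxidant response element core TGACNNNGC, on either strand, was in 4 of the 10 windows of these 8 genes, against 12.4% of all 32851 windows, and the 4 belonged to Nfe2l2, Srxn1, Gclm and Txnrd1. The variant TGAGNNNGC was found in Srxn1, against 17.6% of all windows, and CACGTG, the E-box bound by clock proteins, in no window of the 8 genes, against 7.15% of all windows. Srxn1 held 3 matches of the first 2 motifs, as did 0.63% of windows with 3 or more. The stretches around the matches upstream of the start are shown because they carry the letters searched for, the core in Nfe2l2, Gclm and Txnrd1 and the variant in both stretches of Srxn1, with the match in capitals and each read 5′ to 3′ on the strand of the gene. A match is a description of letters and not evidence of binding.
Nfe2l2 (chr2:75704875-75704913, minus strand): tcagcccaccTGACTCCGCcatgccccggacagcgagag
Srxn1 (chr2:152105346-152105394, plus strand): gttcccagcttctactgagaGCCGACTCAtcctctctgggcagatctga
Srxn1 (chr2:152105459-152105507, plus strand): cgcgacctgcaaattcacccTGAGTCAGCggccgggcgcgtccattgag
Gclm (chr3:122245403-122245451, plus strand): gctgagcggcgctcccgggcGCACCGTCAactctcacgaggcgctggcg
Txnrd1 (chr10:82859094-82859142, plus strand): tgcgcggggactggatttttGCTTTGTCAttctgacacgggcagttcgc

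Nqo1 encodes a quinone reductase and is a classical target of Nrf2. Nqo1 (probe set 10581538) read 125, 125, 124, 120.0, 125, 131 and 131 units from ZT02 to ZT26, close to the minimum of 85 units. It was highest at ZT22 and lowest at ZT14, 1.09-fold apart, and the amplitude was 0.05 ± 0.03 with an adjusted p of 0.555. Cat (catalase, which splits hydrogen peroxide in peroxisomes, probe set 10485466) read 14079, 14313, 14159, 13722, 13329.9, 14029.6 and 14164 units from ZT02 to ZT26. Its highest array was ZT06 and its lowest ZT18, 1.07-fold apart, and its amplitude was 0.04 ± 0.03 with an adjusted p of 0.555. Gpx1 (glutathione peroxidase of the cytosol, probe set 10588899) read 7938, 8040, 7916, 8052, 8065, 8320.2 and 8277 units. Its highest array stood 1.05-fold above its lowest, with an amplitude of 0.03 ± 0.03 and an adjusted p of 0.815.

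**Figure D3:**
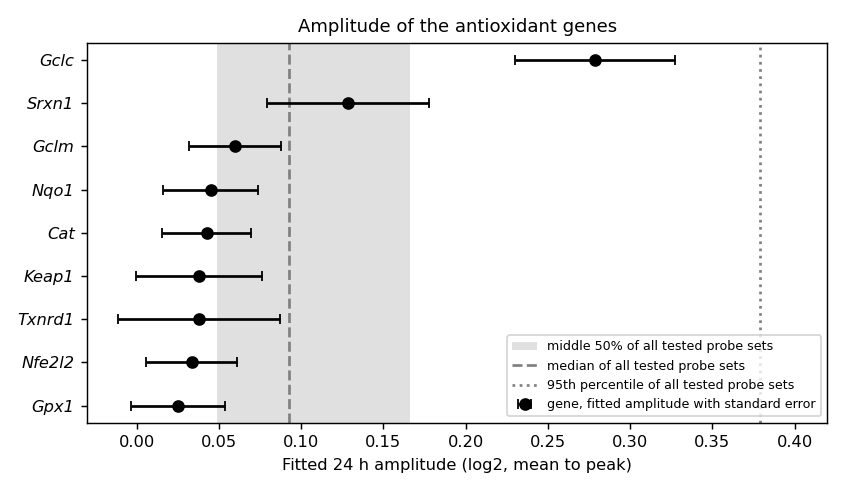
Fitted amplitude in log2 of each of the 9 measured genes with its standard error (points and bars), beside the median (dashed line), the middle 50% (shaded) and the 95th percentile (dotted line) over the 12076 probe sets tested. Gclc lies above the upper quartile of all probe sets (0.17), and Srxn1 (0.13) lies between the median and that quartile.

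Outside Gclc and Srxn1, the amplitudes of the 7 other members lay between 0.03 and 0.06. Their approximate upper 95% bounds lay between 0.09 and 0.16. A p above the threshold does not show that these genes were constant. Their fitted peaks carried SEs of 1.83 to 4.78 h and are not read as times.

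The lowest array of 5 of 9 members was ZT14 (Keap1, Nqo1, Gclc, Txnrd1 and Srxn1), whereas 17.2% of all probe sets tested had their lowest value there. ZT14 was 1 pool, and of the 7 arrays it held the most such minima. The margin over the next lowest array was small in Srxn1 (448.5 against 449.8 units), Keap1 (361.8 against 370.3) and Nqo1 (120.0 against 124.2). It was larger in Txnrd1 (661 against 727 units) and Gclc (3491 against 4307). No member had its highest value at ZT14, against 18.4% of all. The arrays of the same clock hour, ZT26 and ZT02, came from different mice. Their absolute log2 difference had a median of 0.06 over the 9 members, with a maximum of 0.18 in Srxn1, and a median of 0.09 over all probe sets tested.

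Between the dark arrays and the light arrays no member differed in limma's test (0 of 9 at an adjusted p under 0.05, 0% of all probe sets tested, and 0 of 9 at an unadjusted p under 0.05, against 11.2% of all). Gclc averaged 4308 units over the 3 dark arrays and 5136 units over the 4 light arrays, a log2 difference of −0.25 ± 0.14 (SE) with a 95% interval of −0.59 to 0.09 and an adjusted p of 0.541. The other 8 members lay between −0.07 and 0.02, and the median over the 9 members was −0.05, against 0.00311 over all probe sets tested.

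Of 108 other genes of the pathway and its neighbours, 95 were tested and 8 passed (8.42%), against 4.47% of all probe sets tested, and 33 had an unadjusted p under 0.05, against 25.7% of all. Among the 10 tested partners and regulators of Nrf2 none passed and 5 had an unadjusted p under 0.05 (limma). Bach1 and Bach2, repressors that compete for the same DNA elements, had amplitudes of 0.34 ± 0.09 and 0.34 ± 0.10 with adjusted p-values of 0.128 and 0.150. In the list of detoxification genes, 2 of 19 passed. Osgin1, a growth inhibitor induced by oxidative stress, read 3164, 3093, 1599, 1335, 2004, 2643 and 3723 units from ZT02 to ZT26, lowest at ZT14 like Gclc. Its amplitude was 0.67 ± 0.07, with a fitted fold of 2.53, a peak at ZT1.84 and an adjusted p of 0.0218. Gstm4, a glutathione transferase, read 3041, 3009, 2623, 1987, 2057, 2464 and 3132 units, with an amplitude of 0.34 ± 0.03, a peak at ZT4.15 and an adjusted p of 0.0151.

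In the glutathione list 2 of 13 passed. Chac1, which degrades glutathione, had an amplitude of 0.46 ± 0.07 with a peak at ZT6.49 (adjusted p = 0.0414), and Glrx, glutaredoxin, had 0.33 ± 0.05 with a peak at ZT16.5 (adjusted p = 0.0422). In the thioredoxin and peroxiredoxin list 1 of 12 passed. This was Txnip, an inhibitor of thioredoxin that also responds to glucose, which read 1009, 1576, 2160.4, 1306, 834, 825 and 1059 units from ZT02 to ZT26. Txnip was highest at ZT10, with an amplitude of 0.70 ± 0.06, a fitted fold of 2.62 and an adjusted p of 0.0151. Among superoxide, heme and metal defence genes 1 of 11 passed, Hmox1 (heme oxygenase), with an amplitude of 0.30 ± 0.05, a peak at ZT20.6 and an adjusted p of 0.0481.

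Of the peroxisome assembly genes 2 of 13 passed. Pex11a, which divides peroxisomes, read 1572, 1857, 2412, 3204, 2278, 1708 and 1764 units from ZT02 to ZT26, highest at ZT14 where Gclc was lowest. It had an amplitude of 0.43 ± 0.06 and an adjusted p of 0.0308. Pex26, a docking protein of the import machinery, had an amplitude of 0.41 ± 0.03 with a peak at ZT13.4 and an adjusted p of 0.00717. None of the 8 tested genes of NADPH supply and none of the 9 of selenoprotein synthesis passed (limma), with 2 at an unadjusted p under 0.05 in each list. Within the NADPH list the largest amplitudes were 0.25 ± 0.04 for Pgd, of the pentose phosphate pathway (adjusted p = 0.0566), and 0.24 ± 0.06 for Me1, the malic enzyme of the cytosol (adjusted p = 0.132). Within the selenoprotein list they were 0.17 ± 0.06 for Sephs1, of selenophosphate synthesis (adjusted p = 0.248), and 0.15 ± 0.04 for Trnau1ap (adjusted p = 0.149). With 1 array left out at a time, Glrx, Hmox1 and Pex11a passed in 0 of 7 fits, Chac1 in 1, Osgin1 in 3, Txnip and Gstm4 in 4 and Pex26 in 6, and their highest adjusted p-values were 0.150, 0.126, 0.102, 0.156, 0.108, 0.0633, 0.0682 and 0.0521. The call of Chac1 was kept only without ZT10, those of Txnip and Gstm4 were lost without ZT02, ZT14 or ZT26, that of Osgin1 also without ZT10, and that of Pex26 without ZT02.

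**Figure D4:**
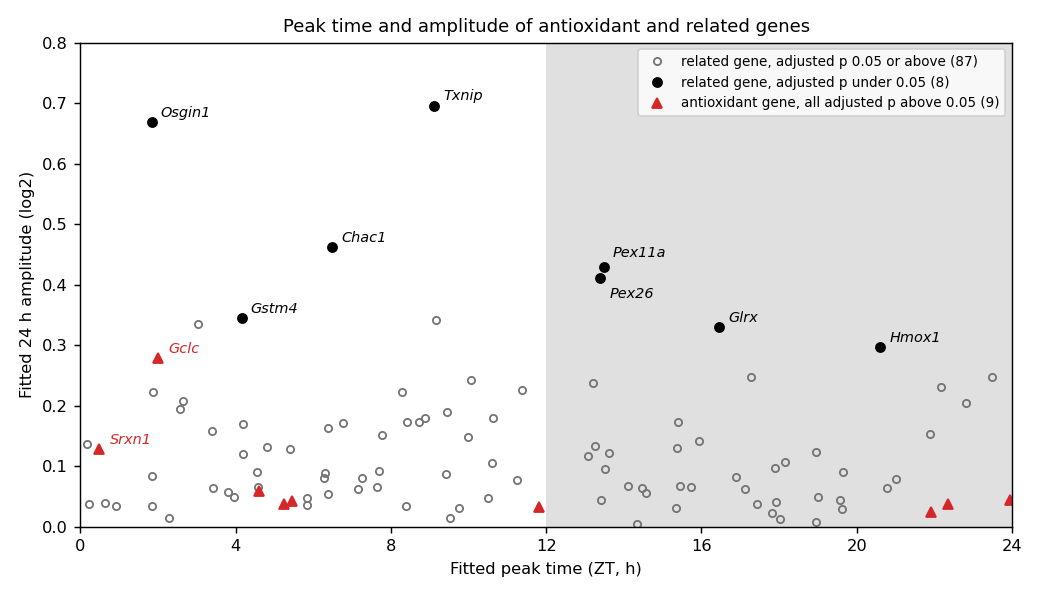
Fitted amplitude in log2 (vertical axis) against fitted peak time in hours after lights on (horizontal axis) for the 95 tested related genes (circles, filled where the adjusted p was under 0.05) and the 9 measured antioxidant genes (triangles), with the dark phase shaded. The 8 called genes peak at different times, from Osgin1 at ZT1.84 to Hmox1 at ZT20.6.

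The probe sets most like Gclc over the 7 arrays were Abcb11, the bile salt export pump (Pearson r = 0.997), BC004004 (r = 0.996) and Gm15998 (r = 0.990), given as a description. Among the 12076 probe sets tested, 213 others had an r above 0.9 with Gclc. The same count was not made for other genes, so whether it is large for 7 arrays was not tested.

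The arrays themselves had medians of 6.37 to 6.40 on the log2 scale, and each correlated with the others at a mean of 0.991 to 0.993. Repeated values were frequent, with 47.8% of tested probe sets holding the same value on 2 or more arrays. The hepatocyte markers summed to 83125 to 85482 units, a 1.03-fold range, and 0 of 6 passed by limma, with 0 at an unadjusted p under 0.05. Endothelial markers (4918 to 6442 units) and stellate cell markers (6475 to 7769.7 units) had 0 of 6 passing each by limma, with 2 and 5 at an unadjusted p under 0.05. Red blood cell (0 of 1), bile duct (0 of 1) and lymphocyte markers (0 of 2) had few probe sets above the minimum, and each list had 1 at an unadjusted p under 0.05. Over all probe sets tested, 4.47% passed and 25.7% had an unadjusted p under 0.05 (limma). Sums ranged 1.31-fold for endothelial, 1.20-fold for stellate, 1.29-fold for red blood cell, 1.70-fold for bile duct and 1.36-fold for lymphocyte markers. These sums include probe sets under the minimum.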

How the data were processed

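Mouse Gene 1.0 ST arrays (Affymetrix) were hybridised by the authors with pooled liver RNA, and the deposited values are log2 signals that, per the submitters' processing notes, came from Affymetrix Expression Console 1.1.2637.26569 with RMA, which corrects background, quantile-normalizes arrays and summarises probes. The deposited log2 values were used unchanged, and 2 to their power gives units. Many probe sets hold identical values on several arrays, and the number of arrays, 7, limits the precision.

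Probe sets were named through the platform annotation supplied. Of 35556, 21789 carried a single symbol, 1621 several and 12146 were unnamed here, and 12076 of the first kind had a mean above 85 units, the study's expression minimum. In R 4.3.3 with limma 3.58.1, an intercept, cosine and sine of 24 h were fitted to all 7 arrays (4 residual degrees of freedom) and tested with the moderated F-test, with Benjamini-Hochberg adjustment over the 12076 probe sets. Dark minus light used the same tool. The code was tested on simulated data. With 1 pool per time point, p-values measure the spread of the pools around the cosine and not that between mice. Samples were grouped by the time in their labels.

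The members, the lists of related and marker genes and the tests were chosen with earlier results of these data known. Named genes were all members, up to 3 called genes of largest amplitude in each list of related genes (or 2 where none was called), and the 3 probe sets most correlated with each member of unadjusted p under 0.05. Alternatives covered the minimum, the test, the scaling, the 2 arrays of the same clock hour and each array left out. Promoter windows were from RefSeq (GRCm38.p6), and Gclc and Prdx6 were not searched. The perfusion volume differs between the sample labels and the study's methods and is not given here.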

Additional observations from a re-analysis of the deposited data

Results flagged for a closer look

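Among the 4 light arrays of each member, the gap between the farthest array and its nearest neighbour was set against the range of the 4, and compared with the 95% limit of Dixon's test for 4 values. Nqo1 exceeded that limit with 0.940, because ZT26 read 131 units and ZT02, ZT06 and ZT10 between 124 and 125 units. Txnrd1 exceeded it with 1, because ZT02, ZT10 and ZT26 shared one value (732 units) and ZT06 read 743 units. Chance passes this limit in about 1 of 20 groups of values without repeats, and 9 groups were examined. Txnrd1 and Nqo1 (124.551 units at both ZT02 and ZT06) held repeated values, so that rate does not apply to them.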

How the results depend on the processing

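The call of Gclc depended on the processing. Its amplitude of 0.28 passed at an adjusted p of 0.0433 with a minimum of 170 units and of 0.0323 with a variance trend and robust moderation, as did 0.28 (adjusted p = 0.0405) with each array centred on its median, and a relative amplitude of 0.18 (adjusted p = 0.0467) on the natural scale. It did not pass with no minimum (0.113), ZT02 and ZT26 averaged (0.111), a linear drift (0.100), Fisher's one-period test (0.234) or without ZT02 and ZT26 together (0.318), an alternative chosen after seeing the data. The number of members called was 1 under the 4 settings that passed and under the methods' thresholds, and 0 to 1 with 1 array left out.

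The related genes called, 8, became 3 with no minimum, with ZT02 and ZT26 averaged or with a drift, 0 with Fisher's test or without ZT02 and ZT26, 15 by the methods' thresholds, 11 at 170 units, with arrays centred or with trend and robust moderation, 7 on the natural scale, and 0 to 4 with 1 array left out. Over all probe sets the count of 540 became 57 with no minimum, 703 of 8993 at 170 units, 0 with Fisher's test, 950 with arrays centred, 504 on the natural scale, 93 averaged, 98 with drift and 741 with trend and robust moderation, and 13 to 312 with 1 array left out. The causes of these changes were not tested. Fits with 1 array left out also held fewer arrays.

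With 1 array left out, amplitudes were 0.02 to 0.04 for Nfe2l2, 0.02 to 0.07 for Keap1, 0.03 to 0.06 for Nqo1, 0.20 to 0.33 for Gclc, 0.05 to 0.07 for Gclm, 0.04 to 0.08 for Txnrd1, 0.10 to 0.17 for Srxn1, 0.03 to 0.05 for Cat and 0.02 to 0.03 for Gpx1. Dark minus light changed sign for Nfe2l2 (-0.0134 to 0.0231), Nqo1 (-0.0428 to 0.0218) and Txnrd1 (-0.0847 to 0.0589), and ran from −0.36 to −0.10 for Gclc. Highest over lowest ran from 1.04 to 1.08 for Nfe2l2, 1.31 to 1.62 for Gclc, 1.11 to 1.22 for Txnrd1 and 1.18 to 1.30 for Srxn1. With 43 units subtracted, Nqo1 had 1.15-fold in place of 1.09-fold. The amplitude of Gclc minus Gclm ran from 0.17 to 0.29. No paired analysis was possible because each time point had 1 array. No member had another probe set to try.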
